A study of Mus musculus with 12 samples.

Results

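Hearts of mice given lipopolysaccharide (LPS) were compared with hearts of mice given saline, transcript by transcript. The comparison used 8 of the 12 samples of the series, which were all of the samples of these groups. Each group held 4 wild-type C57BL/6 mice, and hearts were taken on day 3. Control mice received saline in place of both agents, and LPS mice received 10 mg/kg LPS with saline in place of the decoction XJDHT. The remaining 4 mice received 10 mg/kg LPS and 50 mg/kg XJDHT per day, and their files were used here only to find which genes and transcripts they do not list. Every annotated Ensembl transcript of the 8 files was used, which gave 26882 transcripts of 13449 genes. Levels were in FPKM, fragments mapped to a transcript, scaled by its length and by the depth of the library. A gene's level was the sum over its listed transcripts, and the share of a transcript was its percentage of that sum. Within a group the labels tell the mice apart by number only. RNA came from bulk heart tissue, so fewer cells of a type and less RNA per cell cannot be told apart.

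LPS, a cell wall glycolipid of Gram-negative bacteria, is sensed by Toll-like receptor 4, which starts inflammatory transcription in many cell types of the heart. A single mouse gene can give several transcripts through alternative promoters, alternative splicing and alternative ends. Transcripts of the same gene can encode different proteins, or none, as when an intron is retained or when an early stop marks the RNA for nonsense-mediated decay. A sum over transcripts does not show such exchanges, so levels and shares were read side by side.

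The depth was such that 1 FPKM stood for 74.1 to 77.8 fragments per kilobase of transcript in each library, as read from the steps of the FPKM values. Fragments of the mitochondrial chromosome made up 32.9 to 37.4% in Control and 28.4 to 32.8% in LPS. The first principal component of the genes took 55.2% of the variance and placed Control between -42.08 and -36.36 and LPS between 24.88 and 49.50, with LPS 3 the nearest LPS library to Control. Of 11089 genes that reached 1 FPKM in 4 or more libraries, 2665 were higher and 1454 lower in LPS at an adjusted p below 0.05 (limma, Benjamini-Hochberg), which is 37.1% in all, 24.0% higher and 13.1% lower. The median gene was shifted by 0.13 on the log2 scale. After scaling each library to its median ratio the shift was -0.03 and the split became 1803 higher and 2168 lower. Of 15946 transcripts tested in the same way, 2614 were higher and 1475 lower, which is 25.6% in all, 16.4% higher and 9.25% lower. A feature that reached 1 FPKM in the libraries of 1 group alone had to differ between the groups. This was so for 321 of the tested genes and 656 of the tested transcripts. Without them 23.1% of 10768 genes were higher and 12.3% lower, and 14.6% of 15290 transcripts were higher and 8.08% lower. Where such a feature is named, its level is given as a description with no p-value.

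Exchanges between transcripts of a gene were read from the shares. Of 9798 transcript shares tested in 3411 genes, 122 rose and 120 fell by at least 10 percentage points with an adjusted p below 0.05 (limma on the log2 ratio of the transcript to the rest of its gene). These were 2.47% of the tested shares, 1.25% higher and 1.22% lower, and they lay in 162 genes. In 238 of the 242, the Control and LPS libraries did not overlap, as in 1420 of all 9798 tested shares, 14.5%. A switch, with at least 1 share that rose and at least 1 that fell in the same gene, was found in 76 genes, 2.23% of those tested. Shares are parts of 1 sum, so a rise of 1 share lowers the others. In a gene with 2 listed transcripts both calls are the same test. The leading transcript differed between the groups in 37 of the 76. At gene level 24 of the switching genes were higher, 18 lower and 34 not called. Shares also varied within groups, with a median range over 4 libraries of 11.9 points in Control and 13.0 points in LPS, and 2846 shares differed by at least 10 points between group means at any p.

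Internal exons that lie between coding exons and are present in only 1 transcript of a switching pair show what such a switch does to the message. Igfbp7, Kif1b, Rtn4, U2af1, Itga7 and Mapk14 were chosen for description after their values were seen. The exons are printed 5′ to 3′ from the GENCODE vM21 transcripts on GRCm38 (mm10), with the differing exon in capitals and 12 coding bases of each neighbouring exon in lower case. Igfbp7-202 holds an extra exon at chr5:77401487-77401579 on the minus strand, and Phka1-202 an extra exon at chrX:102557096-102557272 on the minus strand. Acer2-201 holds an exon at chr4:86900482-86900619 on the plus strand that Acer2-202 lacks. Kif1b-203 has 2 short exons that Kif1b-201 lacks, at chr4:149265345-149265362 and chr4:149261160-149261201 on the minus strand.
Igfbp7-202 exon 2: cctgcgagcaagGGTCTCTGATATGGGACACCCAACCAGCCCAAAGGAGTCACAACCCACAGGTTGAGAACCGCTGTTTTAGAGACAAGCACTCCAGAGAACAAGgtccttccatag
Phka1-202 exon 19: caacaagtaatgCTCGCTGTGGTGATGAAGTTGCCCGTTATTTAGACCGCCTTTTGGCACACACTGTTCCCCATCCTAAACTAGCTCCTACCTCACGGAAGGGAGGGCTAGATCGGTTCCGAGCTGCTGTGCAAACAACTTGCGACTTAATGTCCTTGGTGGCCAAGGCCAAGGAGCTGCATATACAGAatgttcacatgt
Acer2-201 exon 4: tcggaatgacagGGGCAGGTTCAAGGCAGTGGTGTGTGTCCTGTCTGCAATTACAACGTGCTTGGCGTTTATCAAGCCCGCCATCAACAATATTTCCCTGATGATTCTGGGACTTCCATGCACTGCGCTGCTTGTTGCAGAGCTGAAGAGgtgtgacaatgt
Kif1b-203 exon 10: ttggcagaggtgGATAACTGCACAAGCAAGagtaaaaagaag
Kif1b-203 exon 14: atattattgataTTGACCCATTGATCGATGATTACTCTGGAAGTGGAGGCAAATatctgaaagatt
The lengths are 93, 177, 138, 18 and 42 bases, each a multiple of 3, so the exon can be added or skipped without a shift of the reading frame.

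Other pairs exchange one exon for another. U2af1-201 and U2af1-202 use different copies of exon 3, at chr17:31651646-31651712 and chr17:31652502-31652568 on the minus strand. Mapk14-201 and Mapk14-202 use different copies of exon 9, at chr17:28740680-28740759 and chr17:28737011-28737090 on the plus strand. Itga7-201 and Itga7-202 use different copies of exon 5, at chr10:128941822-128941941 and chr10:128941445-128941576 on the plus strand.
U2af1-201 exon 3: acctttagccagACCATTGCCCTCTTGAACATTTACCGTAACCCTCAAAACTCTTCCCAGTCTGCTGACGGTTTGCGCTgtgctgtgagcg
U2af1-202 exon 3: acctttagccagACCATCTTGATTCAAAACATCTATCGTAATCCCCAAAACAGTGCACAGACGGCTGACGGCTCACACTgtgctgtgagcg
Mapk14-201 exon 9: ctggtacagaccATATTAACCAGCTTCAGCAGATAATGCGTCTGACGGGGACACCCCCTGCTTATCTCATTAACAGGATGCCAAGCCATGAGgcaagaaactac
Mapk14-202 exon 9: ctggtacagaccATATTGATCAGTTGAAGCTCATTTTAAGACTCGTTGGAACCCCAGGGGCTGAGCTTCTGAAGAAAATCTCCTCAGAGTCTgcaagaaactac
Itga7-201 exon 5: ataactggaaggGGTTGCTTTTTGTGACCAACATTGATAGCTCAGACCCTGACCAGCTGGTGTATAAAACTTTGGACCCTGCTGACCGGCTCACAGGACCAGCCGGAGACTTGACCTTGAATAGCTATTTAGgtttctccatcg
Itga7-202 exon 5: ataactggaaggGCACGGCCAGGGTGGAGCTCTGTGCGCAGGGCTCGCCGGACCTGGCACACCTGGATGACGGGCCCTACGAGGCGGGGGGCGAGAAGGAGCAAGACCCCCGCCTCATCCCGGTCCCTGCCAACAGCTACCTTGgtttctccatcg
The U2af1 copies have 67 bases each and are identical at 44 of them (65.7%), and the Mapk14 copies have 80 bases each and are identical at 39 (48.8%). The Itga7 copies have 120 and 132 bases.

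Igfbp7, a secreted protein that binds insulin-like growth factors, gained its 6-exon transcript. The share of Igfbp7-202 was 0.751, 1.18, 0 and 1.34% in Control and 27.4, 23.99, 31.6 and 25.5% in LPS (adjusted p = 0.00183, limma), and the levels were 0.939, 1.55, 0 and 1.54 and 63.00, 47.2, 67.7 and 56.02 FPKM. Igfbp7-202 met the 5% minimum through LPS alone. Igfbp7-201, which held the rest and led in both groups, had the same test. The transcript with the extra exon was thus near 0 in all Control libraries and present in all LPS libraries. The gene itself rose from 121 ± 8.405 FPKM in Control to 215 ± 13.9 FPKM in LPS (log2 fold change 0.82 ± 0.08, adjusted p = 0.000175).

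Phka1 encodes the muscle form of the alpha subunit of phosphorylase kinase, which activates glycogen breakdown. Phka1-202, the transcript with the extra exon, had shares of 11.9, 11.5, 7.402 and 8.85% in Control and 71.3, 58.02, 41.1 and 35.4% in LPS (adjusted p = 0.0140, limma). Phka1-201 went from 79.4, 88.5, 86.1 and 85.1% to 28.7, 41.98, 58.9 and 24.98% (adjusted p = 0.0164). The shares of the groups did not overlap, but the gene sum did, at 10.9, 9.06, 12.7 and 13.9 FPKM in Control and 2.25, 5.77, 16.4 and 1.97 FPKM in LPS (adjusted p = 0.123). LPS 3 stood above all Control libraries in that sum and the other LPS libraries below them.

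Acer2 is the Golgi alkaline ceramidase, which releases sphingosine from ceramide. The share of Acer2-201 fell from 83.8, 81.5, 81.98 and 79.1% in Control to 19.2, 12.5, 31.04 and 14.4% in LPS (adjusted p = 0.00209, limma). Acer2-202, which lacks the 138-base exon, was at 6.601, 0, 18.02 and 11.7% in Control and 49.4, 52.9, 44.99 and 48.7% in LPS (adjusted p = 0.0257), a call that was lost without any 1 of Control 1, LPS 1, LPS 2 and LPS 4 (adjusted p up to 0.0716). The gene rose from 7.64 ± 1.91 FPKM in Control to 15.8 ± 3.198 FPKM in LPS (log2 fold change 0.96 ± 0.21, adjusted p = 0.00689).

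Kif1b encodes a kinesin motor of organelle transport. The 49-exon transcript Kif1b-203 had shares of 23.9, 27.8, 30.8 and 33.6% in Control and 62.6, 65.3, 55.9 and 65.2% in LPS (adjusted p = 0.0149, limma). The 21-exon transcript Kif1b-201 had shares of 72.1, 65.2, 66.4 and 64.5% and 29.2, 30.3, 38.7 and 33.1% (adjusted p = 0.0119). The longer transcript led in every LPS library and the shorter one in every Control library, while the gene sum went from 24.2 to 19.1 FPKM on average (adjusted p = 0.0515).

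Rtn4, the reticulon also known as Nogo, is a membrane-shaping protein of the endoplasmic reticulum. Its 9-exon transcript Rtn4-205 holds an exon of 2361 bases that Rtn4-202 lacks. Its share was 56.8, 37.9, 37.9 and 49.3% in Control and 89.5, 92.01, 81.3 and 86.04% in LPS (adjusted p = 0.0103, limma). The gene rose from 17.98 ± 3.84 FPKM in Control to 77.3 ± 30.3 FPKM in LPS (log2 fold change 1.99 ± 0.26, adjusted p = 0.000687). The level of Rtn4-205 went from 8.84, 8.89, 6.74 and 7.45 to 68.3, 110.0, 39.96 and 55.1 FPKM. Of the exon bases of Rtn4-202, 35.5% overlap Eml6, whose reads cannot be told apart from it.

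U2af1 is the small subunit of the factor that recognises the AG at the end of introns. U2af1-201 had shares of 83.03, 80.7, 78.7 and 77.7% in Control and 94.8, 95.2, 98.2 and 95.2% in LPS, and U2af1-202 held the rest in each library (adjusted p = 0.0101 for each, limma). The gene level of 17.1, 18.1, 14.8 and 16.1 FPKM in Control and 22.4, 25.9, 17.9 and 28.9 FPKM in LPS had an adjusted p of 0.0342, which did not pass without any 1 of Control 1, 3, 4, LPS 1, 2 and 4 (adjusted p up to 0.0890). Itga7, the laminin receptor subunit of muscle, had shares of Itga7-201 of 24.01, 28.2, 31.3 and 28.1% in Control and 57.6, 71.3, 56.2 and 57.2% in LPS (adjusted p = 0.0201). That switch did not pass without Control 1 (adjusted p = 0.0595 for Itga7-201 and 0.0594 for Itga7-202). The Itga7 gene sum rose from 32.3 ± 1.66 FPKM in Control to 125 ± 41.8 FPKM in LPS (log2 fold change 1.85 ± 0.23, adjusted p = 0.000603). Mapk14, the p38 alpha kinase of stress signalling, kept Mapk14-202 as its leading transcript in every library. Mapk14-201 was at shares of 0, 0.323, 0.348 and 2.81% in Control and 29.7, 18.4, 11.8 and 11.4% in LPS (adjusted p = 0.0196). That call did not hold without Control 1, without Control 3 or without LPS 2 (adjusted p up to 0.0586), and the call of Mapk14-202 did not hold without any 1 of the 8 libraries (adjusted p up to 0.106).

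**Figure D1:**
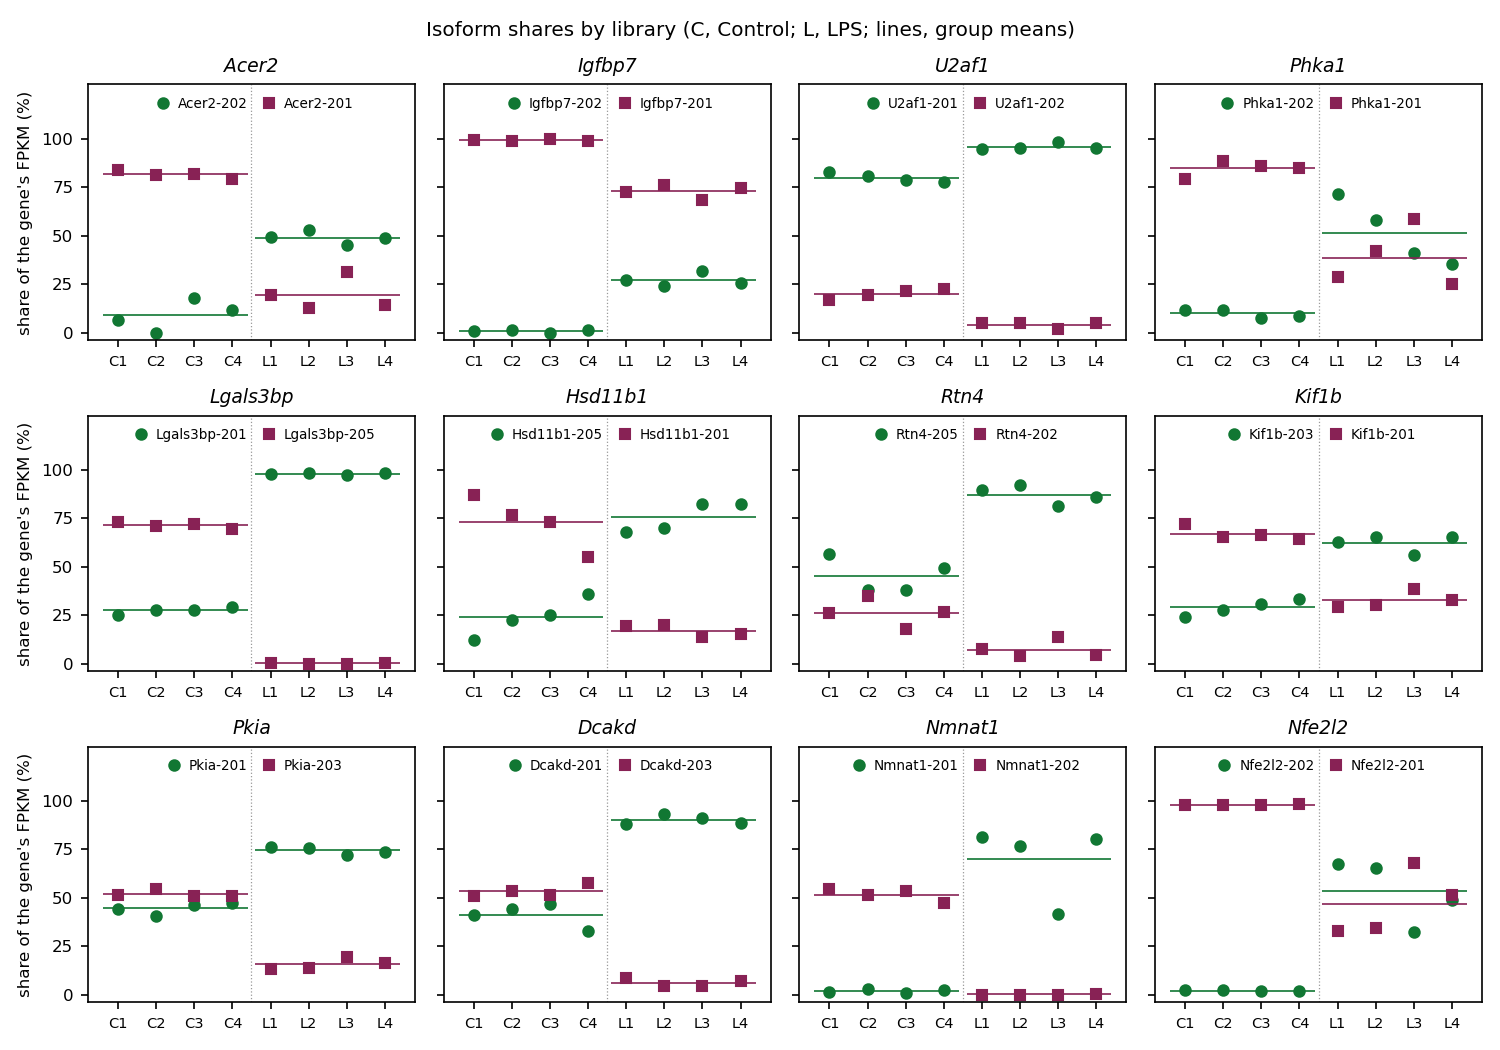
Share of the gene's FPKM in percent on the y axis for the risen (green circles) and the fallen (purple squares) transcript of 12 genes, with each library as a point, Control (C1 to C4) and LPS (L1 to L4) on the x axis, and horizontal lines at the group means. In each panel the points of a transcript do not overlap between the groups, and Lgals3bp-201 is at 25.3 to 29.4% in Control and 97.5 to 98.2% in LPS.

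In Lgals3bp and Hsd11b1 the gene rose and the transcript that led in saline hearts was replaced. Lgals3bp, the galectin-3 binding protein, rose from 21.1 ± 1.21 FPKM in Control to 150.3 ± 14.7 FPKM in LPS (log2 fold change 2.77 ± 0.09, adjusted p = 1.47e-06, limma). The 6-exon Lgals3bp-201 made up 25.3, 27.5, 27.7 and 29.4% of it in Control and 97.99, 98.1, 97.5 and 98.2% in LPS (adjusted p = 7.12e-06). The 2-exon Lgals3bp-205 went the other way, from 15.04, 15.4, 14.2 and 15.7 FPKM to 0.271, 0.01900, 0.0376 and 0.295 FPKM. A transcript that led the gene in all Control libraries was thus almost absent from LPS libraries in which the gene was high. Hsd11b1 encodes the enzyme that regenerates active glucocorticoid, and its level was 6.27, 8.04, 5.79 and 1.49 FPKM in Control and 70.9, 32.04, 87.9 and 73.8 FPKM in LPS (log2 fold change 3.45 ± 0.44, adjusted p = 0.000633). Its 7-exon transcript Hsd11b1-205 had shares of 12.2, 22.4, 25.1 and 35.9% in Control and 67.7, 69.8, 82.5 and 82.4% in LPS (adjusted p = 0.0180), and Hsd11b1-201 had 86.97, 76.4, 73.2 and 55.1% and 19.4, 19.9, 13.6 and 15.2%. Ccrl2, an atypical receptor that binds chemerin, went from Ccrl2-201 to Ccrl2-203. In Hsd11b1 and in Ccrl2 the paired transcripts have the same coding sequence. The share of Ccrl2-203 was 0, 10.96, 24.8 and 11.1% in Control and 71.1, 71.5, 57.7 and 75.7% in LPS (adjusted p = 0.00772), with no call for the gene (adjusted p = 0.162).

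In Nmnat1 and Pkia the coding transcripts switched while the gene sum fell, and the paired transcripts of each gene have the same coding sequence. Nmnat1, which makes NAD in the nucleus, fell from 7.64 ± 1.04 FPKM in Control to 5.06 ± 0.549 FPKM in LPS (log2 fold change -0.51 ± 0.13, adjusted p = 0.0156, limma). Nmnat1-202 was at 54.3, 51.2, 53.4 and 47.5% of the gene in Control and 0, 0, 0 and 0.5303% in LPS. Nmnat1-201 was at 1.37, 2.74, 0.751 and 2.56% and 81.3, 76.5, 41.5 and 80.5%, with LPS 3 well below the other LPS libraries. Pkia, an inhibitor of protein kinase A chosen after its values were seen, fell from 43.1 ± 3.31 FPKM in Control to 27.7 ± 3.77 FPKM in LPS (log2 fold change -0.63 ± 0.12, adjusted p = 0.00354). Pkia-203 was at 24.5, 23.6, 19.96 and 21.5 FPKM in Control and 3.57, 3.08, 5.63 and 5.16 FPKM in LPS, while Pkia-201 was at 20.9, 17.6, 18.3 and 19.9 and 20.96, 17.2, 20.7 and 23.3 FPKM (adjusted p = 0.613 for its level). The share of Pkia-203 went from 51.9% to 15.6% on average (adjusted p = 0.00429). Nrbp1, a pseudokinase adaptor also chosen after its values were seen, rose as a gene from 37.2 to 56.2 FPKM on average (adjusted p = 0.00341), but Nrbp1-207 went from 6.93, 9.41, 9.83 and 6.704 to 0.01195, 0.769, 0.00581 and 0.0121 FPKM, above 1 FPKM in the Control libraries alone.

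In a further set the exchange was between a transcript with a coding sequence and one without. The pair was non-coding in its risen and coding in its fallen member in 13 switches, and the reverse in 11. Nfe2l2 encodes NRF2, the transcription factor of the antioxidant response. Its coding transcript Nfe2l2-201 made up 97.8, 97.6, 97.9 and 98.2% of the gene in Control and 32.6, 34.5, 67.7 and 51.4% in LPS (adjusted p = 0.00215, limma). The rest was the 2-exon processed transcript Nfe2l2-202, at 0.687, 0.745, 0.657 and 0.626 FPKM in Control and 46.7, 30.1, 13.9 and 24.99 FPKM in LPS. The gene sum rose (log2 fold change 0.67 ± 0.14, adjusted p = 0.00727), but with coding transcripts alone the direction was reversed (log2 fold change -0.44), and Nfe2l2-201 itself was at 31.1, 30.3, 30.97 and 33.6 FPKM in Control and 22.6, 15.9, 29.2 and 26.4 FPKM in LPS (adjusted p = 0.108). Dcakd, named for a dephospho-CoA kinase domain, fell as a gene from 15.7 ± 1.56 FPKM in Control to 6.01 ± 0.452 FPKM in LPS (log2 fold change -1.25 ± 0.11, adjusted p = 9.54e-05). Its retained-intron transcript Dcakd-203 went from 7.61, 8.301, 7.47 and 10.3 to 0.543, 0.257, 0.293 and 0.389 FPKM. The coding Dcakd-201 was at 6.13, 6.79, 6.79 and 5.91 and 5.73, 5.25, 5.74 and 4.99 FPKM (adjusted p = 0.237), so the fall of the sum was not shown for the coding transcript.

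Ttc4, a co-chaperone of HSP90, had nearly the same gene level in both groups, at 8.29, 6.98, 7.42 and 8.97 FPKM in Control and 7.31, 7.603, 7.62 and 7.93 FPKM in LPS (adjusted p = 0.779, limma). The processed transcript Ttc4-209 made up 33.9, 73.1, 81.7 and 71.9% in Control and 0.257, 1.78, 0 and 5.47% in LPS. The coding Ttc4-201 had shares of 43.3, 19.96, 6.29 and 4.63% and 88.9, 81.2, 93.98 and 70.9% (adjusted p = 0.0257), a call lost without any 1 of Control 3, Control 4, LPS 1 and LPS 2 (adjusted p up to 0.0683). Kidins220, a membrane scaffold of neurotrophin signalling, gained Kidins220-210, listed at 0 in all Control libraries and at 13.00, 10.1, 6.296 and 7.19 FPKM in LPS. Its retained-intron transcript Kidins220-205 fell to shares of 2.21, 3.12, 3.17 and 2.87% from 38.4, 77.7, 15.5 and 44.1%, a call lost without any 1 of Control 1, Control 4 and the 4 LPS libraries (adjusted p up to 0.0987). Cathepsin H, a lysosomal protease encoded by Ctsh, moved toward its coding transcript and away from Ctsh-202, a nonsense-mediated decay transcript. Ctsh-201 was at 19.5, 19.4, 22.1 and 27.9% in Control and 66.9, 96.6, 95.7 and 99.4% in LPS (adjusted p = 0.0178), a call lost without Control 1 or without LPS 2 (adjusted p up to 0.0537), and the call of Ctsh-202 was lost without any 1 of 7 libraries (adjusted p up to 0.115). Stk16, a Golgi kinase, gained the processed transcript Stk16-207, at 0 in Control and 4.000, 2.65, 3.79 and 2.56 FPKM in LPS. Of the exon bases of Stk16-201, 47.9% overlap Tuba4a, and counting by strand is not given in the sources used here, so reads of these genes cannot be told apart. Of the 152 transcripts of the switching pairs, 22 in 14 genes share at least 10% of their exon bases with another gene.

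Of the 20 switches with the largest share difference outside predicted genes, 6 more each lost calls without several single libraries. Max, the partner of MYC, had shares of Max-201 of 4.14, 8.12, 27.8 and 3.93% in Control and 54.97, 97.9, 99.6 and 85.3% in LPS (adjusted p = 0.0393, limma), lost without any 1 of Control 1, 2, 4 and LPS 4 (adjusted p up to 0.0978). Ift81, of intraflagellar transport, and Cd200, an inhibitory surface glycoprotein, also lost a share call without most single libraries, with adjusted p up to 0.0908 and 0.0954. The same held for Ubr3, a ubiquitin ligase, with adjusted p up to 0.0985, Cuta, with up to 0.104, and Eif5, a translation initiation factor, with up to 0.0712. The 60 shares named by the rules or in the text include both members of pairs that are 1 test, as in Ccrl2. Of these 60, 27 were lost without at least 1 library. The other 33 passed each time they could be tested. Among these 33, the shares of Ccrl2, Hsd11b1 and Phka1 were not testable without 1 of the libraries. Those of Nmnat1 and Stk16 were not testable in 2 such settings.

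An internal exon differed in 32 of the 76 switching pairs, 42.1%, against 635 of 2936 genes, 21.6%, when the 2 transcripts with the highest mean share were taken from every gene with at least 2 tested shares. The first exon differed in 40.8% against 39.0% and the last exon in 28.9% against 29.9%. A whole intron inside an exon of the other transcript was found in 4 pairs, 5.26%, against 19.1%. Both transcripts of the pair had a coding sequence in 51 switches, nonsense-mediated decay transcripts included, and the coding sequence differed in 42 of them. Exons were then read in the coding pairs without a nonsense-mediated decay transcript. There, 26 differing exons in 20 genes lay between coding exons, from 18 to 2361 bases long, and 17 of the 26 were a multiple of 3 long. Retained-intron transcripts were 20.1% of the tested shares, 6.56% of those that rose and 11.7% of those that fell. Processed transcripts were 6.14% of the tested, 14.8% of the risen and 5.83% of the fallen, and nonsense-mediated decay transcripts were 4.69%, 3.28% and 10.0%. The pairs of the switching genes were chosen by their shares, so these figures describe them and were not tested.

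A panel of 99 genes known for regulated splicing in muscle or under stress was also read, of which 58 could be tested. Of their 243 transcripts, 10 in 9 genes had a called share, 4.12% against 2.47% of all tested shares. The panel was chosen with earlier results of these data known, so these figures describe it and were not tested. Triadin, encoded by Trdn, anchors calsequestrin to the calcium release channel. Trdn-207 was at 0, 0, 0 and 0.0951 FPKM in Control and 34.1, 12.7, 45.2 and 23.8 FPKM in LPS, or 83.1, 69.2, 66.5 and 54.9% of the gene. The gene sum, at 41.8, 37.8, 36.5 and 18.6 and 41.03, 18.4, 67.96 and 43.3 FPKM, overlapped (adjusted p = 0.641, limma). Trdn-204, a retained intron, had shares of 74.1, 70.7, 77.5 and 57.7% and 10.2, 14.9, 29.2 and 38.1% (adjusted p = 0.0313), lost without any 1 of Control 1, 2, 3, LPS 1 and 2 (adjusted p up to 0.0838). Cardiac troponin T, encoded by Tnnt2, sets the calcium response of the thin filament. Tnnt2-206 was listed at 0 in all Control libraries and at 253, 192, 742 and 183 FPKM in LPS, or 18.1, 18.5, 38.7 and 19.3% of the gene. The leading transcript Tnnt2-211 was at 66.8, 71.1, 61.6 and 63.2% and 62.9, 61.8, 44.7 and 49.6% (adjusted p = 0.318), and the gene sum overlapped between the groups (adjusted p = 0.864). Asph encodes aspartyl hydroxylase and, from shorter transcripts, proteins of the sarcoplasmic reticulum. The 5-exon Asph-206 went from 39.7, 42.9, 48.8 and 43.4 to 1.42, 2.796, 5.11 and 3.09 FPKM, and its share from 58.9, 60.4, 63.4 and 64.3% to 7.54, 14.4, 22.5 and 14.7% (adjusted p = 0.00605). The Asph sum fell from 70.7 ± 4.499 FPKM in Control to 20.5 ± 1.71 FPKM in LPS (adjusted p = 1.12e-05).

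Of the remaining panel calls, that of Rbm3 passed without any 1 library. Rbm3 and Cirbp are cold-inducible RNA-binding proteins. Rbm3 rose from 23.2 ± 3.39 FPKM in Control to 163 ± 44.4 FPKM in LPS (log2 fold change 2.73 ± 0.20, adjusted p = 4.16e-05, limma), and its nonsense-mediated decay transcript Rbm3-207 went from 18.9, 11.04, 15.98 and 10.97% of the gene to 0 in all LPS libraries. Cirbp rose from 16.97 ± 3.21 FPKM in Control to 55.98 ± 8.45 FPKM in LPS (adjusted p = 0.00017), and the share of its coding Cirbp-202 was 64.3% in Control and 88.7% in LPS on average, a call lost without any 1 of the 8 libraries (adjusted p up to 0.111). Pdlim5, a Z-disc protein, had shares of Pdlim5-201 of 7.26, 7.84, 7.65 and 8.300% and 34.3, 27.3, 18.6 and 30.4% (adjusted p = 0.0168, and 0.0501 without Control 1). Tead1, a Hippo pathway transcription factor, had shares of Tead1-203 of 5.75, 0.236, 0.148 and 2.36% and 24.4, 47.4, 54.2 and 24.6% (adjusted p = 0.0257), lost without any 1 of Control 1, 2, 3 and LPS 2 (adjusted p up to 0.0703). Ptbp1-201, of a splicing repressor, was lost without any 1 of 7 libraries (adjusted p up to 0.0954), and Lcn2-201 without LPS 2 (adjusted p = 0.0520).

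**Figure D2:**
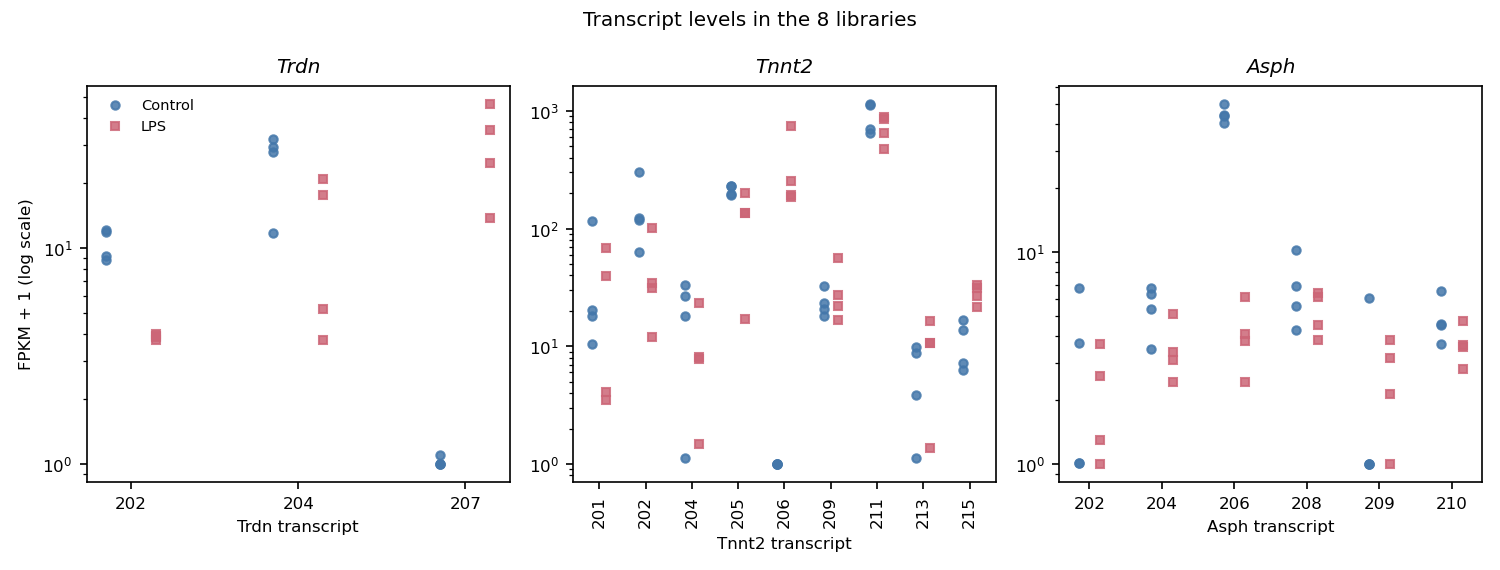
Level of the transcripts of Trdn, Tnnt2 and Asph that reached 5 FPKM in any library, as FPKM + 1 on a log axis, with transcripts on the x axis, Control as blue circles, LPS as red squares and a point for each library. Tnnt2-206 sits at 0 FPKM in all Control libraries and between 183 and 742 FPKM in LPS, and Asph-206 sits lower in all LPS libraries than in any Control library.

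Of the 4089 transcripts called at their own level, 33 went against their called gene, 142 lay in genes with an adjusted p over 0.5 and 510 in genes that were not called. In 74 genes, 1 transcript was called higher and another lower. Without transcripts that reached 1 FPKM in 1 group alone these counts were 20, 104, 385 and 45. Pdlim5-208 was at 0, 0, 0.469 and 0 FPKM in Control and 9.11, 9.05, 3.27 and 6.99 FPKM in LPS, above 1 FPKM in LPS alone, and Pdlim5-203 at 9.72, 5.45, 5.49 and 5.55 and 0.0693, 1.26, 0.562 and 0.0627 FPKM (adjusted p = 0.00122, limma), in a gene of nearly constant level (182 to 178 FPKM on average, adjusted p = 0.783). Adk encodes adenosine kinase. Its transcript Adk-201 went from 8.91, 6.07, 5.52 and 9.74 to 0.216, 0.176, 2.26 and 0.114 FPKM (adjusted p = 0.00270) at a gene adjusted p of 0.910. Spag7-202, a retained intron, went from 0.0172, 1.52, 0.216 and 0.838 to 6.29, 6.72, 7.41 and 8.497 FPKM (adjusted p = 0.000995). Dtnbp1-207, a nonsense-mediated decay transcript of the dysbindin gene, went the other way, from 4.52, 4.55, 16.3 and 12.02 to 0, 0, 0 and 0.5303 FPKM, above 1 FPKM in the Control libraries alone. Pmp22-204, of a membrane protein best known from myelin, was at 19.5, 3.96, 5.43 and 7.64 and 0, 0.458, 0 and 1.96 FPKM (adjusted p = 0.00834) while the gene rose. Of the other transcripts named by the same rule, the calls of Ank1-201, Atp5a1-202, Ccndbp1-201, Chchd10-203 and Cxcl12-203 were each lost without at least 1 library (adjusted p up to 0.0671, 0.0727, 0.0804, 0.0530 and 0.0581).

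Of the 13449 genes, 583 have no row in the LPS+XJDHT files, 4.33%, and of these 413 are protein-coding. Each of the 583 had a lower mean in LPS than in Control. That direction follows from how the files were made, since a transcript is listed when a group mean is about 0.5 FPKM or more and all 2159 transcripts left out of the LPS+XJDHT files were higher in Control. The genes were low, with a median of 0.706 FPKM in Control and 0.258 FPKM in LPS, and 154 had a Control mean of at least 1 FPKM. Of the 583, 67 reached the minimum for the test and 61 of these were lower in LPS, none higher. Of all 583, 282 did not overlap between groups, and of all 11089 tested genes 4297 did not overlap, 38.75%. The 67 passed the minimum through the Control libraries, so the 61 describe the listing, and nothing is read from either count. Log2 fold changes of log2(FPKM + 1) with their standard errors are given for these genes as descriptions, with no test. In 11 genes every LPS library was at 0.

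Mgl2, a C-type lectin of macrophages and dendritic cells, was at 6.69, 12.7, 4.06 and 3.49 FPKM in Control and 0, 0.255, 0.309 and 0.451 FPKM in LPS (log2 fold change -2.49 ± 0.33). Retnla, a resistin-like protein made by alternatively activated macrophages, was at 0, 8.48, 5.09 and 3.81 and 0.488, 0, 0 and 0 FPKM, too low in 1 Control library to be tested. Fcrls, an Fc receptor-like scavenger receptor chosen after its values were seen, was at 3.58, 3.77, 3.08 and 3.43 and 0, 0.184, 0.153 and 0.3503 FPKM (log2 fold change -1.94 ± 0.13). For Mgl2 and Fcrls all Control libraries stood above all LPS libraries, a direction that the listing fixed. Cd300ld3, another receptor of myeloid cells and also chosen after its values were seen, was at 2.24, 4.81, 2.202 and 2.75 and 0.202, 0, 0.636 and 0 FPKM.

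Kcne1, the accessory subunit of the channel of the slow delayed rectifier potassium current, was at 3.51, 3.03, 5.59 and 5.07 FPKM in Control and 1.02, 0.466, 0.545 and 0.261 FPKM in LPS (log2 fold change -1.74 ± 0.21). Kcnv2, a silent voltage-gated potassium channel subunit chosen after its values were seen, was at 1.85, 1.89, 2.32 and 2.56 and 0.119, 0.0919, 0.321 and 0.203 FPKM. Neither channel gene overlapped between the groups, from which nothing is read, as unlisted genes are lower in LPS by the listing. Akr1c14, a steroid dehydrogenase, was at 3.64, 4.44, 4.84 and 3.31 FPKM in Control and listed at 0 in every LPS library. Dct, an enzyme of melanin synthesis, was at 5.33, 4.14, 3.77 and 6.06 and 0.485, 0.543, 0.609 and 0.166 FPKM (log2 fold change -1.999 ± 0.17). Inmt, a methyltransferase of amines, was at 3.36, 1.74, 3.27 and 7.65 and 0.148, 0.0726, 0.767 and 0.226 FPKM (log2 fold change -1.84 ± 0.33). Daam1, a formin of actin assembly, was at 3.81, 0.0485, 7.802 and 3.63 and 0.704, 0.118, 0.252 and 0.587 FPKM and was not tested, with Control 2 at the LPS level.

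Of the 10 genes with the highest Control mean, 3 are non-coding and lie on or beside other genes. Gm16534 was at 4.195, 4.48, 4.65 and 4.92 and 0.551, 0.428, 0.138 and 0 FPKM, with 78.4% of its exon bases inside Fam78a, which was itself at 3.00 and 1.01 FPKM on average. Mir8112 was at 5.57, 0.102, 5.199 and 5.93 and 0.101, 0.0995, 0.0986 and 0.618 FPKM and was not tested, with 95.4% of its bases in Krcc1, at 26.1 and 11.8 FPKM on average. Gm26712, wholly inside Pyurf, rested on Control 2 alone, at 22.2 FPKM against 0.122 to 0.187 FPKM in the other 7 libraries. Reads of these pairs cannot be told apart. Lrrc15, Clec3a, Mfsd4b3 and Rtn4r, the Nogo receptor, were chosen after their values were seen and were also lower in LPS, with log2 fold changes of -1.97 ± 0.19, -2.07 ± 0.20, -1.79 ± 0.11 and -1.37 ± 0.12.

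Unlisted transcripts also belonged to genes that stay listed: 1523 of the 2159 lay in 1315 such genes. Lgals3bp-205, Dcakd-203, Ttc4-209, Kidins220-205 and Rbm3-207, described above, are among them. Nck1-201, of an adaptor of receptor tyrosine kinases, was at 16.6, 13.99, 11.5 and 12.6 FPKM in Control and 0.316, 0.2498, 0.896 and 0.321 FPKM in LPS (log2 fold change -3.35 ± 0.19). Chordc1-201, of a co-chaperone of HSP90, was at 8.68, 6.38, 7.15 and 5.35 and 0.298, 0.00901, 0.455 and 0.242 FPKM (log2 fold change -2.65 ± 0.19). Tmem164-203 was at 3.704, 4.9995, 7.204 and 8.31 and 0, 0.334, 0.245 and 0 FPKM, and Trmt1l-201, of a gene related to a tRNA methyltransferase, at 2.32, 3.88, 3.41 and 5.14 and 0.101, 0, 0.366 and 0 FPKM. These 4 were chosen among unlisted transcripts after their values were seen, so nothing is read from the lack of overlap between the groups.

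**Figure D3:**
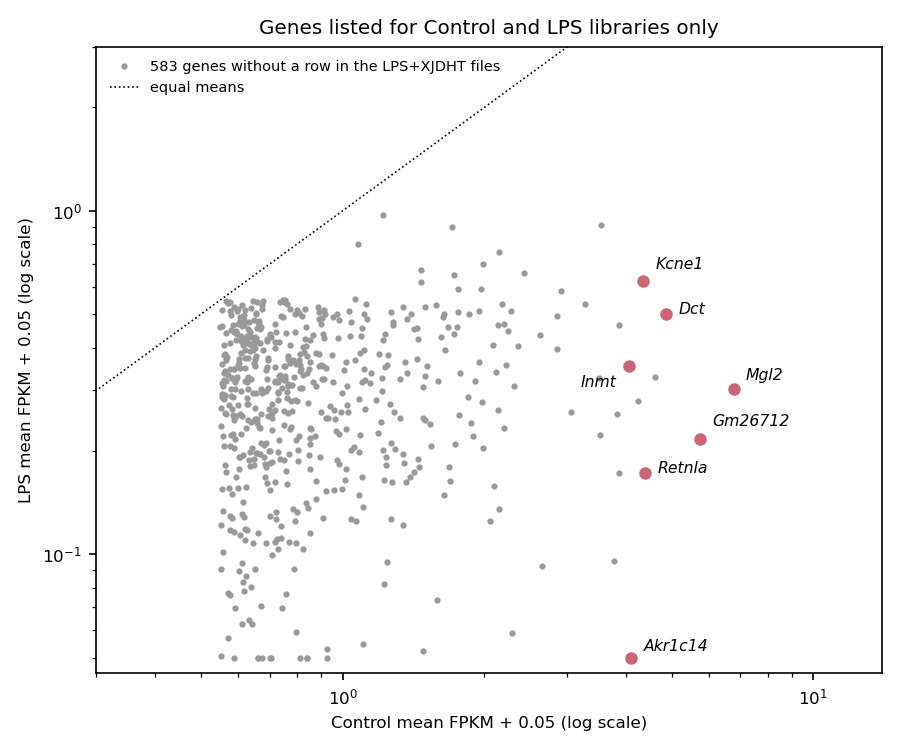
Mean FPKM + 0.05 of the 583 genes without a row in the LPS+XJDHT files, Control on the x axis and LPS on the y axis, both logarithmic, with 7 of the 10 genes of highest Control mean marked and named and the line of equal means dotted. Every point lies below the line, as the listing requires, and 154 genes have a Control mean of at least 1 FPKM.

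Gene families were read at gene level against the background of 24.0% higher and 13.1% lower, or 16.3% and 19.6% of 11071 genes after median-ratio scaling. The lists were chosen with earlier results of these data known, so their counts are descriptions. The counts include 5 solute carriers, 2 sphingolipid genes and at most 1 gene of any other family that reached 1 FPKM in 1 group alone. Among solute carriers, the membrane transporters of small molecules, 35 of 159 tested rose and 31 fell, or 28 and 38 after median-ratio scaling. Slc2a4, the insulin-responsive glucose transporter GLUT4, fell from 31.3, 33.04, 48.3 and 48.6 FPKM in Control to 9.68, 12.01, 9.55 and 12.02 FPKM in LPS (log2 fold change -1.78 ± 0.17, adjusted p = 0.00017, limma). Slc2a1, the basal glucose transporter GLUT1, rose from 3.71, 4.17, 4.57 and 4.25 to 16.5, 27.4, 8.26 and 11.02 FPKM (log2 fold change 1.57 ± 0.31, adjusted p = 0.00471). These glucose transporters thus moved in opposite directions. The rule named family genes only where the groups did not overlap, as in 38.75% of all tested genes, so their separation is no result. Slc10a6, a sulphated steroid transporter, rose from 4.46, 4.49, 4.14 and 3.91 to 63.9, 43.1, 24.4 and 40.02 FPKM (log2 fold change 2.99 ± 0.25, adjusted p = 8.49e-05). Slc39a14, a zinc and iron importer, rose by 2.15 ± 0.20 (adjusted p = 0.000159), and Slco2a1, a prostaglandin transporter of the 4 tested organic anion carriers, by 1.58 ± 0.13 (adjusted p = 9.31e-05).

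Nuclear receptors were lower more often than higher, with 8 of 26 tested down and 1 up, or 9 down and 0 up after median-ratio scaling, and a median log2 fold change of -0.51. Esrra, a regulator of oxidative metabolism genes, was at 51.4, 52.5, 53.2 and 58.9 FPKM in Control and 17.8, 22.1, 26.1 and 24.6 FPKM in LPS (log2 fold change -1.23 ± 0.12, adjusted p = 0.000212, limma). Rxrg, a retinoid X receptor, was at 29.1, 29.96, 31.6 and 21.5 and 6.83, 7.37, 19.3 and 10.1 FPKM (log2 fold change -1.38 ± 0.29, adjusted p = 0.00651). Nr4a3, an orphan receptor, fell by 0.92 ± 0.21 (adjusted p = 0.00999) and Thra, a thyroid hormone receptor, by 0.50 ± 0.13 (adjusted p = 0.0179, and 0.0514 without Control 4). Among Kruppel-like factors and dual-specificity phosphatases, Klf6 rose by 1.00 ± 0.21 (adjusted p = 0.00693), Klf10 by 0.85 ± 0.20 (adjusted p = 0.0111) and Dusp1, a phosphatase of MAP kinases, by 0.72 ± 0.14 (adjusted p = 0.00496), and Dusp8 fell by 0.91 ± 0.21 (adjusted p = 0.00951). Of the Kruppel-like factors 3 of 11 rose and 0 fell, or 2 and 1 after that scaling, and of the phosphatases 1 of 16 rose and 3 fell, or 1 and 4.

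Tubulins split by isotype, with 5 of 13 higher and 4 lower, or 4 and 4 after median-ratio scaling. Tuba1c was at 28.2, 30.4, 24.4 and 25.5 FPKM in Control and 90.2, 132, 49.97 and 73.1 FPKM in LPS (log2 fold change 1.55 ± 0.26, adjusted p = 0.00210, limma), and Tuba1b rose by 1.28 ± 0.31 (adjusted p = 0.0122). Tuba8 was at 66.6, 58.1, 76.9 and 78.3 and 9.13, 17.96, 15.97 and 17.1 FPKM (log2 fold change -2.18 ± 0.21, adjusted p = 0.000156), and Tuba4a fell by 1.77 ± 0.33 (adjusted p = 0.00354). The alpha-tubulins named here are closely related in sequence and can share reads. ADAMTS proteases cleave matrix proteoglycans. Of 12 tested ADAMTS and ADAMTS-like genes, 4 rose and 3 fell under either scaling. Adamts4 was at 1.11, 0.3701, 0.679 and 0 and 18.6, 8.17, 7.03 and 7.86 FPKM (log2 fold change 2.84 ± 0.33, adjusted p = 0.000402) and Adamts1 at 15.1, 13.2, 10.96 and 14.99 and 82.3, 42.5, 35.7 and 33.9 FPKM (adjusted p = 0.00172), while Adamtsl2 fell by 1.52 ± 0.22 (adjusted p = 0.00106).

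TGF-beta and BMP signalling had 11 of 31 tested genes higher and 2 lower, or 8 and 4 after median-ratio scaling. Inhbb, the beta B subunit of activin, was at 1.23, 0.951, 1.23 and 1.01 FPKM in Control and 32.98, 17.3, 6.24 and 11.8 FPKM in LPS (log2 fold change 2.88 ± 0.40, adjusted p = 0.00101, limma). Tgfbr2, the type II receptor, was at 9.19, 9.403, 8.39 and 9.698 and 32.3, 23.6, 27.1 and 30.5 FPKM (log2 fold change 1.52 ± 0.12, adjusted p = 5.89e-05). Neither Inhbb nor Tgfbr2 overlapped between groups, which the rule for naming required. Tgfb2 rose by 1.52 ± 0.33 (adjusted p = 0.00742) and Fstl3, an activin inhibitor, by 1.56 ± 0.23 (adjusted p = 0.00137), although more than 50% of the exon bases of Fstl3 overlap Prss57. Wnt signalling had 2 of 18 higher and 5 lower, or 2 and 7 after median-ratio scaling. Its secreted inhibitors went both ways, with Wif1 at 5.88, 3.29, 3.17 and 4.91 and 0.619, 1.91, 0.5403 and 0.6001 FPKM (adjusted p = 0.00251), Sfrp1 lower by 0.88 ± 0.15 (adjusted p = 0.00230) and Frzb higher by 0.74 ± 0.14 (adjusted p = 0.00449). Notch signalling had 3 of 23 higher and 4 lower, or 2 and 5 after that scaling. Hey1, a transcriptional target of Notch, was at 5.604, 4.698, 5.11 and 5.403 and 0, 0.554, 0.927 and 0.568 FPKM, above 1 FPKM in Control alone, and without it 3 genes were lower. The ligand Jag2 fell by 0.74 ± 0.14 (adjusted p = 0.00439). A list of fibroblast, insulin-like and other growth factors, with receptors and binding proteins, had 4 of 24 higher and 6 lower, or 3 and 9 after that scaling. In it, Igfbp3 was higher by 1.75 ± 0.23 (adjusted p = 0.000723), Egfr higher by 1.01 ± 0.16 (adjusted p = 0.00161) and Fgf16 lower by 1.11 ± 0.16 (adjusted p = 0.00115).

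Of 16 tested heterogeneous nuclear ribonucleoproteins 8 rose and 0 fell, or 6 and 2 after median-ratio scaling. Hnrnpa1 was at 37.8, 37.5, 38.9 and 40.2 FPKM in Control and 80.7, 92.9, 76.8 and 94.2 FPKM in LPS (log2 fold change 1.13 ± 0.09, adjusted p = 7.06e-05, limma), and Hnrnpl rose by 0.99 ± 0.13 (adjusted p = 0.000609). Of 12 serine-arginine rich splicing factors 1 rose and 2 fell under either scaling: Srsf5 was at 56.4, 70.7, 67.04 and 83.7 and 224, 152, 164 and 199.6 FPKM (adjusted p = 0.00034), Srsf7 fell by 0.97 ± 0.25 (adjusted p = 0.0170), and Srsf10 by 0.41 ± 0.12 (adjusted p = 0.0249), lost without any 1 of Control 1, 3 and 4 (adjusted p up to 0.0719). Of 11 small nucleolar RNA host genes 7 rose and 0 fell under either scaling. Snhg6 was at 6.55, 5.56, 4.300 and 5.61 and 21.6, 27.6, 13.5 and 14.9 FPKM (log2 fold change 1.61 ± 0.22, adjusted p = 0.00100), and Snhg5 at 1.76, 1.76, 1.79 and 1.77 and 6.79, 8.39, 3.77 and 3.93 FPKM (adjusted p = 0.00362).

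Of 13 cytochrome P450 genes 4 rose and 2 fell, or 3 and 4 after median-ratio scaling, and Cyp1b1, which oxidises steroids and aryl hydrocarbons, was at 4.12, 2.89, 3.53 and 3.94 FPKM in Control and 25.2, 24.1, 30.01 and 32.4 FPKM in LPS (log2 fold change 2.64 ± 0.14, adjusted p = 1.12e-05, limma). Of 16 glutathione S-transferases 3 rose and 2 fell, or 1 and 5 after median-ratio scaling, and Gsta1 was at 1.66, 0, 1.52 and 1.89 and 26.9, 21.2, 10.6 and 9.94 FPKM (adjusted p = 0.00102). Aldh1a2, which makes retinoic acid, rose by 2.22 ± 0.35 (adjusted p = 0.00160), and Aldh4a1 of proline breakdown fell by 0.89 ± 0.14 (adjusted p = 0.00174), among 2 higher and 2 lower of 15 aldehyde dehydrogenases, or 2 and 4 after that scaling. The other higher one, Aldh3a1, went from 0.276, 0.162, 0.305 and 0.564 to 4.94, 9.195, 7.36 and 8.71 FPKM, above 1 FPKM in LPS alone. In one-carbon and serine metabolism 3 of 11 rose and 2 fell under either scaling: Psat1, of serine synthesis, was at 1.67, 1.12, 1.18 and 1.24 and 4.901, 8.94, 5.76 and 4.71 FPKM (adjusted p = 0.000505) and Mtr, methionine synthase, at 28.8, 21.3, 27.6 and 33.2 and 7.31, 5.31, 14.8 and 10.4 FPKM (adjusted p = 0.00303). Cholesterol synthesis had 1 of 20 higher and 2 lower, or 0 and 4 after median-ratio scaling. In purine handling 4 of 15 rose and 1 fell, or 3 and 2 after that scaling, with Xdh, xanthine dehydrogenase, at 9.82, 7.75, 9.04 and 27.6 and 96.5, 35.9, 30.6 and 45.1 FPKM (adjusted p = 0.0109), where Control 4 stood well above the other Control libraries.

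Of 9 ephrins and Eph receptors 3 rose and 3 fell, or 1 and 3 after median-ratio scaling, with the receptor Epha4 lower by 1.47 ± 0.17 (adjusted p = 0.000362, limma). Sphingolipid genes had 7 of 21 higher and 1 lower, or 5 and 1 after that scaling, and S1pr1, a receptor of sphingosine-1-phosphate, was at 34.1, 39.2, 38.3 and 40.9 FPKM in Control and 77.4, 62.7, 56.4 and 56.04 FPKM in LPS (adjusted p = 0.00242). Of 8 tested regulators of G protein signalling 2 fell and 0 rose, or 3 and 0 after that scaling. Rgs5, of mural cells, fell from 146, 146, 149 and 145 to 80.1, 52.9, 82.9 and 72.4 FPKM (adjusted p = 0.000703). Tripartite motif genes had 9 of 33 higher and 3 lower, or 6 and 6 after median-ratio scaling. Trim55, a ligase of the sarcomere, was at 12.5, 14.9, 14.2 and 26.5 and 2.56, 3.78, 6.102 and 2.62 FPKM (adjusted p = 0.00132), Trim72, of membrane repair in muscle, fell by 1.18 ± 0.22 (adjusted p = 0.00377) and Trim16 rose by 1.98 ± 0.35 (adjusted p = 0.00295). Of 14 tetraspanins 2 rose and 5 fell, or 2 and 6 after that scaling.

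**Figure D4:**
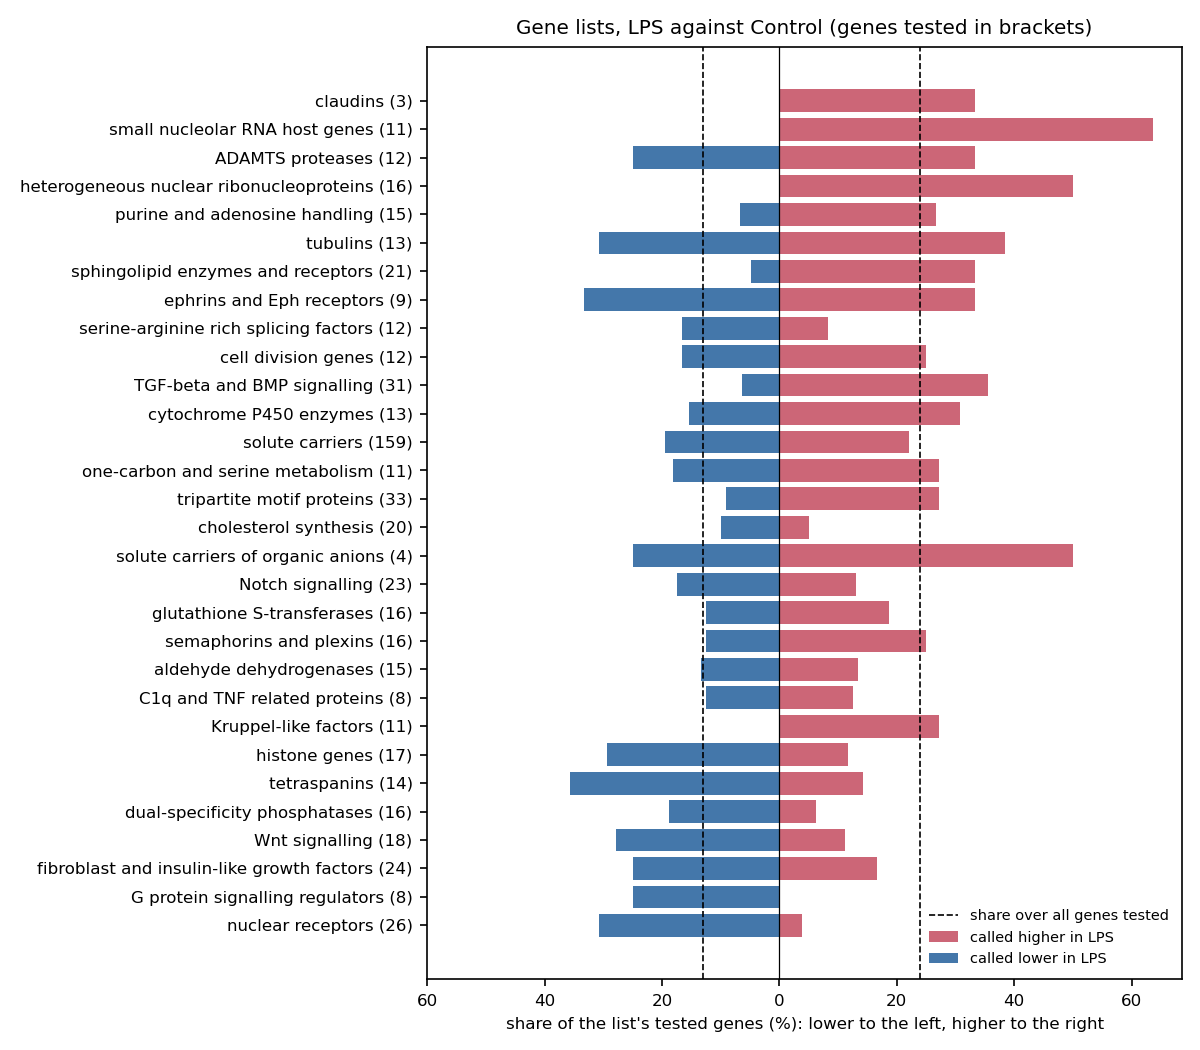
Percentage of the tested genes of each family or pathway called higher or lower in LPS, as bars from 0, with dashed lines at the background of 24.0% higher and 13.1% lower over all tested genes. Lower calls run to the left and higher calls to the right. Small nucleolar RNA host genes have the longest bar of higher calls, 7 of 11, and nuclear receptors have 8 of 26 lower.

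**Figure D5:**
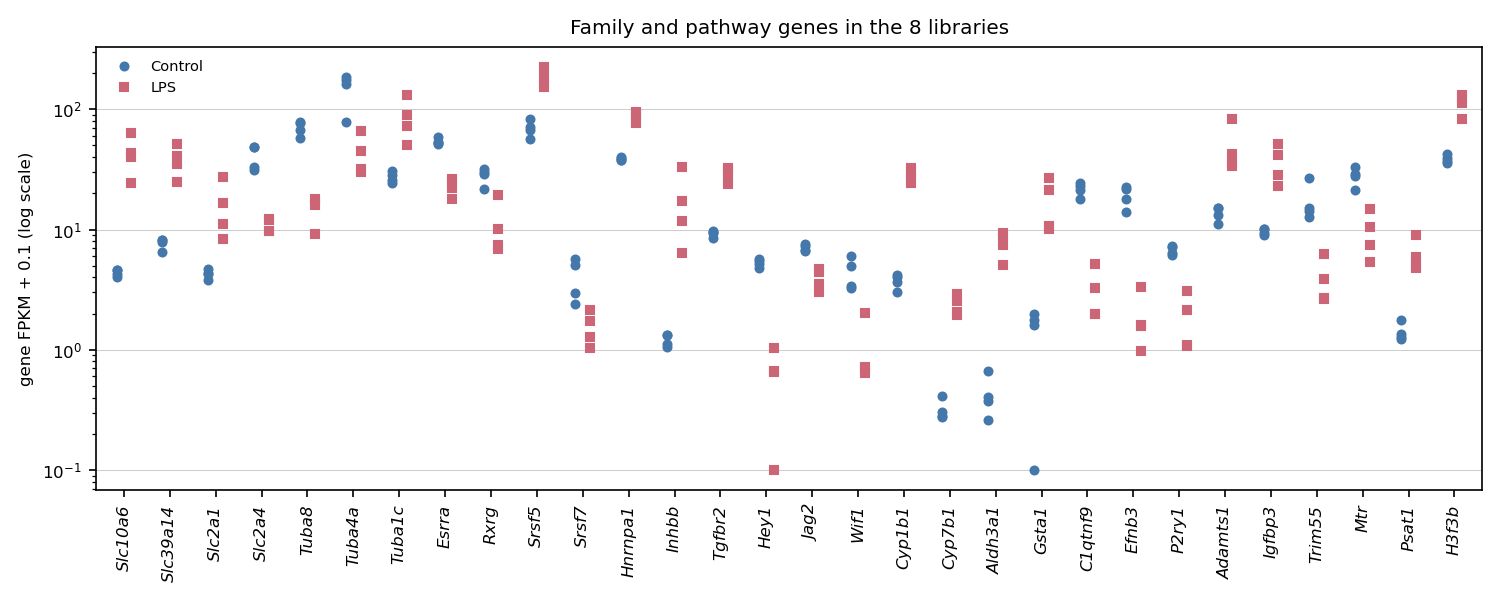
FPKM + 0.1 of 30 named family genes in each library on a log axis, with Control as blue circles, LPS as red squares and a point for each library. The groups do not overlap for any gene shown, as the rule for naming required. Slc2a4 sits between 31.3 and 48.6 FPKM in Control and lower, from 9.55 FPKM, in LPS.

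Among genes annotated as non-coding, Mir22hg, the host gene of the microRNA miR-22, was at 0.923, 1.92, 1.81 and 1.17 FPKM in Control and 39.1, 59.5, 22.8 and 34.04 FPKM in LPS (log2 fold change 3.96 ± 0.28, adjusted p = 3.84e-05, limma). Lsmem2, annotated as a lincRNA in the release used, was at 18.04, 19.3, 15.6 and 14.3 and 4.13, 0.636, 0.9797 and 2.45 FPKM (log2 fold change -2.68 ± 0.34, adjusted p = 0.000582). Atcayos, an antisense gene, was at 6.95, 7.61, 9.78 and 9.94 and 35.9, 26.2, 23.8 and 24.8 FPKM (adjusted p = 0.000248). Mhrt, antisense to Myh7, was at 9.51, 8.75, 3.35 and 4.000 and 1.38, 1.84, 0.936 and 1.17 FPKM (adjusted p = 0.00449), with 58.5% of its exon bases shared with Myh7, which went from 53.8 to 64.2 FPKM on average, so reads of the pair cannot be told apart. Malat1, an abundant nuclear RNA chosen after its values were seen, was at 32.6, 28.96, 46.8 and 51.6 and 90.3, 86.7, 58.3 and 65.4 FPKM (adjusted p = 0.0112). Over all tested genes 24.0% rose and 13.1% fell. Of 96 lincRNA genes 15 rose and 25 fell, and of 81 antisense genes 10 rose and 31 fell. Without those that reached 1 FPKM in 1 group alone, 11 of 83 lincRNA genes rose and 16 fell, and 6 of 64 antisense genes rose and 18 fell. Over all genes these figures were then 23.1% and 12.3%. Of 571 processed pseudogenes 207 rose and 24 fell, and these can share reads with their parent genes. As a share of all FPKM outside the mitochondrial chromosome, coding transcripts made up 61.9% in Control and 66.7% in LPS, and unprocessed pseudogenes 30.8% and 24.6%. Groups did not overlap for either, but the exact permutation test over 70 splits gave p = 0.0286, the smallest it can give, and 0.0571 after adjustment over the 10 biotypes compared. These are parts of 1 sum, so a fall of 1 part raises the others. Only 40 unprocessed pseudogene transcripts are listed, and they too can share reads with other genes, mitochondrial ones included, which was not tested.

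Marker levels of cell types moved beside these results, and their counts stand against 24.0% higher and 13.1% lower over all tested genes. After median-ratio scaling, 5 erythroid markers were lower, 2 fibroblast markers higher and 4 lower, and 2 macrophage markers higher and 1 lower. That scaling left the counts of cardiomyocyte, endothelial and mural markers given below unchanged. Summed cardiomyocyte markers were 17866 to 20023 FPKM in Control and 8815 to 10777 FPKM in LPS, with 6 of 11 lower, among them Actc1 and Myh6. Erythroid markers were 1276 to 1381 FPKM in Control and 238 to 804 FPKM in LPS, with 4 of 5 lower. Neutrophil markers were 1.505 to 2.85 FPKM in Control and 81.6 to 120.1 FPKM in LPS. Of the 6 tested, 4 reached 1 FPKM in LPS alone, and the other 2, S100a8 and S100a9, were called higher, while Ly6g, Mpo, Elane and Cxcr2 are not listed. Endothelial markers were 612 to 709.7 FPKM and 770 to 1116 FPKM with 3 of 10 higher. Fabp4, which is also an adipocyte marker, was at 439 to 526 and 595 to 879 FPKM of these, and the other 9 summed to 159 to 207 and 176 to 258 FPKM, which overlapped. Fibroblast markers were 913 to 1109.5 FPKM and 1136 to 1361 FPKM with 3 of 10 higher and 4 lower, and a median log2 fold change of -0.18. Dcn was at 257 to 353 and 616 to 722 FPKM of these, and Gsn, among the lower ones, at 352 to 510 and 217 to 315 FPKM. Without Dcn the mean sum was lower in LPS than in Control. Mural markers were 299 to 348 FPKM and 210 to 282 FPKM with 3 of 9 lower. Macrophage markers were 161 to 246 FPKM in Control and 161 to 397 FPKM in LPS, with 2 of 11 tested higher, Cd68 and Fcgr1, and 0 lower. Fcgr1 reached 1 FPKM in LPS alone, and Csf1r, at 12.3 and 8.26 FPKM on average, was not called. None of 10 T cell markers is listed. Small intestine markers were 3.21 to 10.6 FPKM in Control and 31.4 to 38.3 FPKM in LPS. Of the 9 tested, 7 reached 1 FPKM in LPS alone and 1 of the other 2 was called higher, Defa20 and Reg3b being at 0 in every Control library. Testis markers were 11.7 to 15.2 and 9.72 to 20.4 FPKM with 0 of 7 called. The part of these cell types in the switches, in the unlisted genes and in the family results was not tested.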

How the data were processed

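Total RNA of the hearts was depleted of ribosomal RNA and made into libraries with a NEBNext kit, per the labels' protocols. The deposited files give FPKM values per transcript, as the authors made them. The submitters' processing notes name mm10 and limma. Which aligner and which quantifier were used is not given in the sources used here. No value column of the tables was left unused.

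Transcripts were joined to GENCODE mouse release 21. Of 36293 rows, 26922 carry Ensembl identifiers, and 40 of these are not in that annotation. The 9371 rows of assembled transcripts, 6.45 to 8.02% of FPKM, were left out, so a share is of the listed annotated transcripts. Steps in the FPKM values returned whole fragments for 98.1 to 98.4% of values (tolerance 0.1), from which the depth was taken.

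Genes and transcripts with at least 1 FPKM in at least 4 of 8 libraries were fitted with limma 3.58.1 (R 4.3.3) on log2(FPKM + 1). Counts without features that reached that minimum in 1 group alone were added after seeing the data. Fold changes are on that scale, which understates low genes. Errors after fold changes are standard errors, and those after means are SD, n = 4. Shares were fitted on log2 ratios with 0.5 added, for genes with at least 2 transcripts and a mean of 5 FPKM in each group, and transcripts at 5% or more in a group. P-values are two-sided and Benjamini-Hochberg adjusted. Figures were drawn with matplotlib 3.10.9, and tables were made with pandas 2.3.3, Python 3.11.15 and NumPy 2.4.6.

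Tested on simulated data, the gene fit over 10859 genes recovered 65 of 100 changes of size 1 and 91 of 100 of size 2 (log2), with 11 false calls. The share fit over 8792 shares recovered 376 of 400 changes of 40 points, with 6 false calls. Its simulated noise was capped and independent between transcripts, and changes were placed in well expressed genes with a clear leading transcript. The direction of recovered shares was not checked. In the data, 9.12% of shares in Control and 9.55% in LPS ranged by at least 50 points within the group. These rates need therefore not hold for the data. P-values measure the spread between 4 mice per group.

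Named were up to 4 called genes per family list with the largest change, the higher group at 2 FPKM or more and the groups not overlapping; the 20 largest switches outside predicted genes; called panel transcripts; the 10 unlisted genes of highest Control mean; 10 transcripts against their called gene and 10 in unchanged genes; and 8 non-coding genes. Some items named by these rules are not reported here. Names that only share a family's prefix were dropped from its list. The members and lists were chosen with earlier results of these data known. Alternatives covered filters, pseudocounts, scaling, share rules and each library left out.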

Additional observations from a re-analysis of the deposited data

Results flagged for a closer look

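In 27 of 441 groups of 4 values, 6.12%, the highest or lowest library lay farther from the other 3 than Dixon's critical value allows, and chance alone flags about 1 in 20 groups. LPS 3 was that library in 8 of the 27, Control 4 in 6, LPS 1 in 5, Control 2 in 4, and Control 1 and LPS 2 in 2 each.

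Among shares, LPS 3 stood apart for Nmnat1-201 at 41.5%, Tnnt2-206 at 38.7%, U2af1-201 at 98.2% and U2af1-202 at 1.75%. LPS 1 stood apart for Ctsh-201 at 66.9% and Ctsh-202 at 28.1%. LPS 2 stood apart for Itga7-201 at 71.3% and Itga7-202 at 26.7%, and Control 2 for Cd200-210 at 27.5%.

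Among genes, LPS 1 stood apart for Actc1 at 417 FPKM, Adamts4 at 18.6 FPKM and Sema3f at 6.23 FPKM. LPS 3 stood apart for the neutrophil genes Ngp at 8.62 FPKM and S100a9 at 32.0 FPKM. Control 4 stood apart for Ctsh at 26.1 FPKM, Srsf10 at 12.4 FPKM, Trim55 at 26.5 FPKM and Xdh at 27.6 FPKM. Control 2 stood apart for Ccnd2 at 13.7 FPKM, Gm26712 at 22.2 FPKM and Mir8112 at 0.102 FPKM, and Control 1 for Snhg3 at 2.07 FPKM.

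Among transcripts, LPS 3 stood apart for Tnnt2-206 at 742 FPKM and Adk-201 at 2.26 FPKM. Control 4 stood apart for Atp5a1-202 at 41.8 FPKM and Cxcl12-203 at 5.56 FPKM, and Control 1 for Pdlim5-203 at 9.72 FPKM.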

How the results depend on the processing

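No paired analysis was possible because each mouse has a number of its own in the labels, none shared between the groups, and the library numbers 1 to 4 are only names. Without 1 library, called genes numbered 3168 to 4051 (4119 with all 8), transcripts 2810 to 3827 (4089), shares 97 to 230 (242), switches 28 to 62 (76) and lower unlisted genes 6 to 59 (61). The unlisted count fell to 6 to 8 without a Control library, since 3 Control libraries cannot meet the minimum of 4. With a limit of 5 FPKM, 2636 transcripts and 0 of 0 tested unlisted genes were called, and with no filter 284 unlisted genes. Shares numbered 155 with a gene mean of 10 FPKM. With a difference of at least 20 points there were 161 shares and 49 switches, with limma diffSplice 726 and 208, with shares of recovered fragments 152 and 39, and with protein-coding transcripts alone 117 and 43, where 31 unlisted genes were called. The other alternatives left these counts within 1.5 times. The counts of unlisted genes and switches under each alternative were added after seeing the data. Directions reversed for Ctsh (0.48) and Nfe2l2 (-0.44) with protein-coding transcripts alone, for Trdn with limma-voom on recovered fragments (-0.012) and without LPS 3 (-0.0095), and for Tnnt2 without Control 1, Control 2, LPS 2 or LPS 4. Without 1 library the log2 change ran from -0.0095 to 0.60 for Trdn and from -0.26 to 0.079 for Tnnt2. Of 175 named gene changes 140 kept their call in every alternative in which they could be tested, of 20 transcripts 12 and of 60 shares 26. The cause was not tested. Depth was recovered rather than given, and how fragments were divided between transcripts of a gene is not given in the sources used here.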

Other observations

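Nnt encodes the mitochondrial transhydrogenase that makes NADPH. In Control libraries 1 to 4, Nnt-202 had levels of 126, 162, 24.4 and 200.6 FPKM. In LPS libraries 1 to 4 its levels were 0.0460, 0.135, 0.0932 and 68.2 FPKM. Nnt-206 stood at 0, 0, 85.3 and 0 FPKM in the same Control libraries. The LPS libraries held 114.5, 72.6, 85.9 and 0 FPKM of it. Control 3 and LPS 4 thus each stood apart from their group, and neither transcript separated the groups.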
